A study of Mus musculus with 12 samples.

Results

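Mouse ES cells make XEN-like cells, a culture model of the extraembryonic endoderm, when the transcription factor Gata6 is activated in them, and 9 genes of peroxide and selenium handling were followed through this change: Gpx1, Gpx2, Gpx3, Gpx4, Gpx7, Gpx8, Sepp1, Txnrd1 and Txnip. They were found by their gene symbol on the arrays, which gave 10 probes of 55681 and 9 gene names of 34836. Gpx3 and Sepp1 were chosen by their high signal in the XEN-like cells of these same arrays, so their Dex responses are given as a description and without a test. Their genotype differences in XEN-like cells and in the Dex response rest on that signal too and are given without p-values.

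Glutathione peroxidases reduce hydrogen peroxide or lipid peroxides at the expense of glutathione. Gpx1 to Gpx4 carry selenocysteine at the active site and differ in place, with Gpx1 in cytosol and mitochondria, Gpx2 in the cytosol mainly of epithelia, Gpx3 secreted, and Gpx4 acting on lipid peroxides in membranes. Gpx7 and Gpx8 have a cysteine in its place and work in the endoplasmic reticulum, where folding of secreted proteins produces peroxide. Sepp1, named Selenop in newer annotation, is a secreted carrier of selenium that cells take up through the receptors Lrp8 and Lrp2. Txnrd1 is the cytosolic selenoenzyme that reduces thioredoxin with NADPH, while Txnip binds thioredoxin and restrains it, and also restrains glucose uptake. The extraembryonic endoderm forms the endoderm layers of the yolk sac, an epithelial visceral one and a more mesenchymal parietal one. Between them these layers secrete basement membrane and serum proteins and pass nutrients to the embryo.

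All 12 RNA samples came from EB3 ES cells carrying Gata6GR, a fusion of Gata6 to the ligand-binding domain of the human glucocorticoid receptor that dexamethasone (Dex) brings into the nucleus. The 4 groups of 3 arrays, all at day 4, were Sox7 (+/-) ES cells without Dex, Sox7 (+/-) XEN-like cells with Dex, Sox7 (-/-) ES cells without Dex and Sox7 (-/-) XEN-like cells with Dex. The controls without Dex thus held the fusion gene too. One Sox7 allele of the (+/-) line had its coding region replaced by a puromycin cassette, and the (-/-) cells were obtained from that line by selection in high-dose puromycin, so each genotype goes back to the same clone and no wild-type cells were on the arrays. In every group Dex and Gata6 activation came together, and an effect of Dex on the receptor that the cells have of their own cannot be told apart from Gata6. The labels do not say whether replicates were separate cultures, and for the Sox7 (+/-) ES cells one label field calls all 3 replicate 1, so the p-values measure the spread between these arrays, which may be technical.

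Signal is given as log2 over each array's 75th percentile, so 0 is the level of that percentile and a difference of 1 is 2-fold. Levels of different genes are not compared, since each probe has its own brightness. Sox7, the targeted gene, was between 1.12 and 2.78 on the 6 Sox7 (+/-) arrays and not well above background on any of the 6 Sox7 (-/-) arrays. All 10 markers of extraembryonic endoderm were above background on all 12 arrays, and their summed level, as a percentage of the 75th percentile signal, was 44848 to 63912 in ES cells and 185154 to 220821 in XEN-like cells. Summed over 9 pluripotency markers it was 29296 to 61055 in ES cells and 5355 to 8030 in XEN-like cells, where Nanog, Sox2 and Fgf4 were not well above background. Klf4 went the other way, with a mean log2 signal of 4.15 in ES and 5.61 in XEN-like cells for Sox7 (+/-). For Sox7 (-/-) these means were 5.46 and 5.97. Klf4 had the highest signal of the 9 markers on every XEN-like array, so the XEN-like sum mainly reflects this gene. Array 3 of the Sox7 (+/-) XEN-like cells stood apart, with 8.30% of the tested probes over 2-fold from the mean of the other arrays of its group, against 0.664% to 3.26% on the other arrays. Results that rest on it are given with and without it. Of the 2 slides used, the first carried all Sox7 (-/-) ES samples plus array 1 of the Sox7 (-/-) XEN-like cells. The second carried the remaining 8 samples. Values within a slide or with slide as a block are given where they matter. The slide term of the block is set only by array 1 of the Sox7 (-/-) XEN-like cells against the other arrays of that group. In ES cells genotype and slide coincide, so the block shifts the genotype difference by this term and cannot tell them apart.

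**Figure D1:**
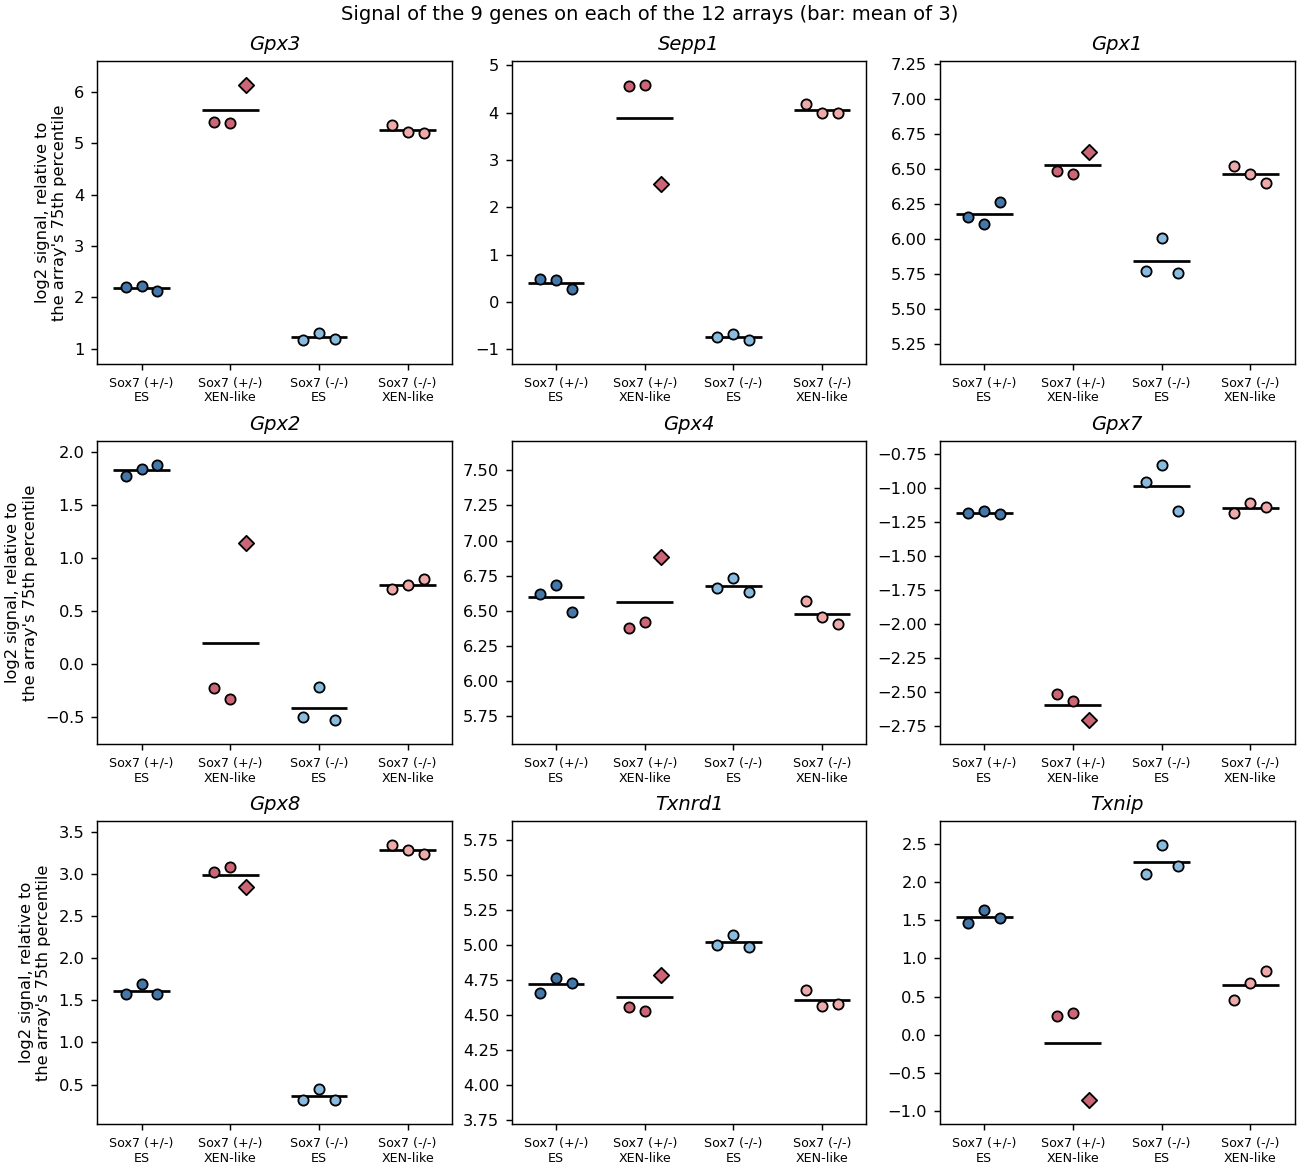
Log2 signal of the 9 genes on each of the 12 arrays, by group, over each array's 75th percentile. Points are arrays in the order 1 to 3, bars are means of 3, and the diamond is array 3 of the Sox7 (+/-) XEN-like cells, which lay at 2.49 for Sepp1 and 1.14 for Gpx2, far from the other arrays of its group.

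The response to Dex was first compared across the 7 genes other than Gpx3 and Sepp1, whose rise is part of how they were chosen. In Sox7 (+/-) cells 1 of the 7 was called higher in XEN-like cells (adjusted p under 0.05 in limma and over 2-fold), Gpx8, where 11.0% of all 25922 probes tested were called higher. Another 3 were called lower, Gpx2, Gpx7 and Txnip, where 13.9% of all probes were. In Sox7 (-/-) cells 2 of the 7 were called higher, Gpx2 and Gpx8, against 14.6% of all probes, and 1 was called lower, Txnip, against 14.2%. The median log2 difference of the 7 genes was -0.09 in Sox7 (+/-) cells and -0.16 in Sox7 (-/-) cells, beside 0.16 and 0.07 over all probes tested.

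Both secreted selenoproteins were far above their ES cell level in XEN-like cells of either genotype. Their promoters are shown with those of Gpx8, which rose too, and Txnip, which fell. These 4 are the genes of the 9 that moved over 2-fold in the same direction in both genotypes. The sequences are the 250 bases before the annotated start (RefSeq, GRCm38.p6), from chr11:54902604-54902853 for Gpx3, chr15:3270727-3270976 for Sepp1 and chr3:96557707-96557956 for Txnip, all on the plus strand, and chr13:113046389-113046638 on the minus strand for Gpx8. Sepp1 has 3 annotated windows, of which the one with the highest start coordinate is shown. Capitals mark matches to the motifs described after them.
Gpx3: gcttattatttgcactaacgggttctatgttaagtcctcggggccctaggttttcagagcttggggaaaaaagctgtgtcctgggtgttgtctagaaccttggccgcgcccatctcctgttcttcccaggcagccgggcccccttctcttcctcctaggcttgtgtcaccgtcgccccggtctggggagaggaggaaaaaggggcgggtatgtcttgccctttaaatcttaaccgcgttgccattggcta
Sepp1: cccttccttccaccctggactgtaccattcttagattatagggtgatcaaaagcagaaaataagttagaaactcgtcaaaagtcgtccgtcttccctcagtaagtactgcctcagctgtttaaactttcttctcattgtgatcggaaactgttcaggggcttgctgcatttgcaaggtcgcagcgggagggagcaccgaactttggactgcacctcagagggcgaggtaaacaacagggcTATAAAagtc
Gpx8: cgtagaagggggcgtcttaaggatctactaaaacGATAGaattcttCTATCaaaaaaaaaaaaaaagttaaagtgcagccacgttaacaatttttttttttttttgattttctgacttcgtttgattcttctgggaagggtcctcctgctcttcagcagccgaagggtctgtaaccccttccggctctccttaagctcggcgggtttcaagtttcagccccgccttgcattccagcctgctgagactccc
Txnip: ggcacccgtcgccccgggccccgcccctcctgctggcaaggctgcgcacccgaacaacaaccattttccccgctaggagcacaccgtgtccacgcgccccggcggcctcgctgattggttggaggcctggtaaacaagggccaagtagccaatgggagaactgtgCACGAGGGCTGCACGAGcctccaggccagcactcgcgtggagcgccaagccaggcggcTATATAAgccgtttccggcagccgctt
All 9 genes had an entry, with 16 windows in total. The letters GATAA or GATAG, the core that GATA factors bind, were searched on both strands and occurred in 37.4% of all 32851 windows of this length. Gpx8 held 2 matches, whereas neither Gpx3, nor Sepp1 in the window shown, nor Txnip had one. Of the other genes, Gpx4, Gpx7 and Txnrd1 had a match in at least 1 window. The Txnip window held CACGNG followed after 5 bases by a second CACGNG, the paired E-box of carbohydrate response elements, searched on both strands, at position -85 from the start, which only 15 of all windows did. TATAAA or TATATAA on the strand of the gene was found in Sepp1 and Txnip and in 8.70% of all windows. The antioxidant response element core TGACNNNGC, on either strand, was present in 1 window of Txnrd1 among the 9 genes and in 10.2% of all windows. The glucocorticoid receptor motif, AGAACA and TGTTCT with 3 bases between them, was in 3 of all windows and in none of the 9 genes. None of these motifs overlapped another in the sequences shown.

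Gpx3, the secreted peroxidase of plasma, was read by a probe at chr11:54723436-54723495 on mm9, the build of the array positions. Its signal in Sox7 (+/-) ES cells was 2.19, 2.22 and 2.13, and in Sox7 (+/-) XEN-like cells 5.42, 5.39 and 6.14. In Sox7 (-/-) ES cells it was 1.17, 1.31 and 1.18, and in Sox7 (-/-) XEN-like cells 5.37, 5.22 and 5.19. No ES array came near any XEN-like array, and the Sox7 (-/-) ES arrays were the lowest of all. The Dex response was 3.47 on the log2 scale (11.1-fold) in Sox7 (+/-) cells, or 3.22 without array 3, and 4.03 (16.4-fold) in Sox7 (-/-) cells. Between the genotypes, Gpx3 was lower in Sox7 (-/-) than in Sox7 (+/-) ES cells by a log2 difference of -0.96 (SE 0.17, limma adjusted p = 0.0013), just short of 2-fold. With slide as a block it was -1.12 (adjusted p = 0.0496), past the 2-fold limit, by a shift that rests on array 1 of the Sox7 (-/-) XEN-like cells. With arrays scaled by spike-in controls it was past the limit too, at -1.11 (adjusted p = 9.2e-05). It was under 2-fold at -0.86 after normexp background correction and at -0.87 in the deposited table. In XEN-like cells the genotype difference was -0.39 (SE 0.17), and -0.15 without array 3. The genotypes differed in the Dex response of Gpx3 by 0.57 (SE 0.24), and by 0.81 without array 3, both under 2-fold.

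Sepp1 had its probe at chr15:3230418-3230477 (mm9). Signal in Sox7 (+/-) ES cells was 0.49, 0.47 and 0.29. In Sox7 (+/-) XEN-like cells arrays 1 and 2 gave 4.57 and 4.59, while array 3 gave 2.49. The Sox7 (-/-) ES cells had -0.73, -0.68 and -0.80, and the Sox7 (-/-) XEN-like cells 4.19, 4.00 and 4.00. Array 3 was thus about 2 log2 units under the other arrays of its group, yet still above every ES array. The Dex response was 3.47 (11.1-fold) in Sox7 (+/-) cells, 4.17 without array 3, and 4.80 (27.8-fold) in Sox7 (-/-) cells. Sepp1 was lower in Sox7 (-/-) than in Sox7 (+/-) ES cells, with no overlap of the arrays, by a log2 difference of -1.15. This missed the threshold with all arrays (SE 0.45, adjusted p = 0.059) and passed without array 3 (SE 0.08, adjusted p = 5.2e-06). Array 3 is in neither ES group, so the difference stayed at -1.15 and only the spread shared over all groups changed. The value was -1.34 with slide as a block (adjusted p = 0.34). In XEN-like cells the direction turned with array 3. The difference was 0.18 (SE 0.45) with it and -0.52 (SE 0.09) without it. The Dex responses of the genotypes differed by 1.33 (SE 0.63), which was not called, and by 0.63 without array 3, which is under 2-fold. This difference became a call at 1.53 in the deposited table. It was not called at 1.72 with arrays scaled by spike-in controls or at 1.16 after normexp background correction.

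The lower ES cell level of both genes in the Sox7 (-/-) cells went with other marker levels in the same cells. The summed endoderm markers were 62478 to 63912 in Sox7 (+/-) ES cells and 44848 to 49483 in Sox7 (-/-) ES cells. Lama1 and Lamb1, laminin chains of the basement membrane, made up 73.5% to 76.6% of the endoderm sum on the ES arrays. Of the 10 endoderm markers, 0 were called between the genotypes in ES cells, where 1.94% of all probes were called higher and 6.67% lower. Gata6, Pdgfra and Sox17 had the higher mean in Sox7 (-/-) ES cells. The fusion gene holds full-length mouse Gata6, and whether the Gata6 probe also read its transcript was not tested. The summed pluripotency markers were 29296 to 30453 in Sox7 (+/-) and 57293 to 61055 in Sox7 (-/-) ES cells, and 3 of the 9 were called higher in the latter. Trophectoderm markers summed to 822 to 838 in Sox7 (+/-) ES cells, 424 to 450 in Sox7 (-/-) ES cells, 95 to 113 in Sox7 (+/-) XEN-like cells and 252 to 267 in Sox7 (-/-) XEN-like cells, with Elf5 not above background on any array. Of 5 trophectoderm markers tested, 3 were called lower in Sox7 (-/-) ES cells. The part of all these marker levels in the results on the 9 genes was not tested. Fewer cells of a type and less RNA per cell cannot be told apart in RNA of whole cultures.

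Genes with 12 values most like those of Gpx3, after each was centred on its own mean, were Loxl2, a secreted lysyl oxidase, with a root mean square difference of 0.21, Wnt11, a secreted Wnt ligand, with 0.25, and Gdf9, a growth factor, with 0.26. For Sepp1 they were Robo2, a guidance receptor, with 0.36, Filip1l with 0.38, and Prkg1, a cGMP-dependent kinase, with 0.40. This ranking ran over 25871 probes and 12 arrays, and the 4 groups, not 12 independent conditions, shape it. Robo2 was not above background on any Sox7 (-/-) ES array, and with Dex it was at least 9.97-fold higher in that genotype. Prkg1 was not above background on any ES array and its rise with Dex was at least 7.11-fold for Sox7 (+/-) and at least 3.75-fold for Sox7 (-/-). These bounds set the XEN-like mean against the lowest signal well above background on each ES array, or the probe's own signal where that was higher.

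**Figure D2:**
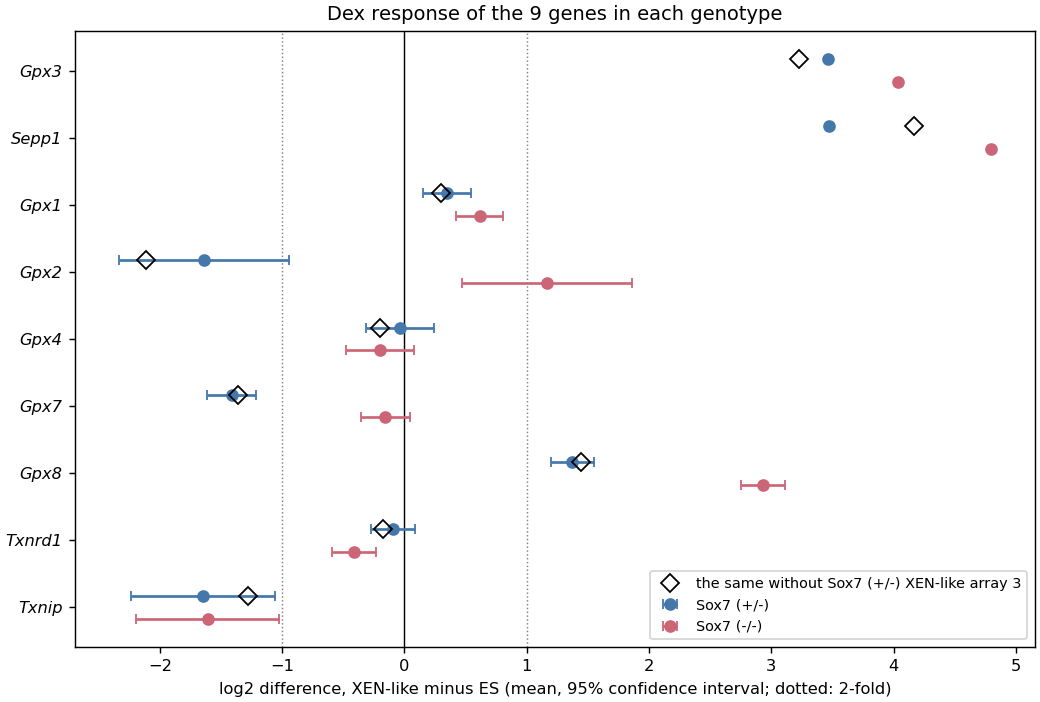
Dex response of the 9 genes as the log2 difference of XEN-like minus ES cells in Sox7 (+/-) cells (blue) and Sox7 (-/-) cells (red), with 95% confidence intervals from limma. Intervals are not drawn for Gpx3 and Sepp1, which were chosen on this signal, dotted lines are 2-fold, and diamonds leave out array 3 of the Sox7 (+/-) XEN-like cells. Gpx2 lay at -1.64 in one genotype and 1.17 in the other, and Gpx7 at -1.41 and -0.16.

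Of the intracellular selenoperoxidases, Gpx2 alone passed the 2-fold limit, and its response to Dex had opposite directions in the genotypes. Its probe lies at chr12:77893402-77893461 (mm9). Signal fell from 1.78, 1.84 and 1.88 in Sox7 (+/-) ES cells to -0.23, -0.33 and 1.14 in Sox7 (+/-) XEN-like cells. It rose from -0.51, -0.22 and -0.53 in Sox7 (-/-) ES cells to 0.70, 0.74 and 0.80 in Sox7 (-/-) XEN-like cells. Sox7 (+/-) ES cells were therefore the highest group, and array 3 of the Sox7 (+/-) XEN-like cells lay over 1 log2 unit above the others of its group. The response was -1.64 (SE 0.31, adjusted p = 0.0011) in Sox7 (+/-) cells, and -2.11 without array 3. In Sox7 (-/-) cells it was 1.17 (SE 0.31, adjusted p = 0.0073). With slide as a block the latter was 1.12 and missed the threshold (SE 0.46, adjusted p = 0.070). Within slide 1, which holds 1 Sox7 (-/-) XEN-like array, it was the same 1.12, because that array alone sets the slide term. Array 3 is not in this comparison but adds to the shared spread, and without it the Sox7 (-/-) response was 1.17 (SE 0.09, adjusted p = 1.6e-06). The Sox7 (-/-) response was just under 2-fold at 0.99 after normexp background correction and at 0.998 in the deposited table. The difference between the 2 responses was 2.81 (SE 0.44, adjusted p = 0.0013), and 3.28 without array 3 (adjusted p = 5.5e-07). Without Dex, Gpx2 was 4.77-fold lower in Sox7 (-/-) cells, at -2.25 (SE 0.31, adjusted p = 3.3e-04), and at -2.18 with slide as a block (adjusted p = 0.044). With Dex the difference was 0.56 (SE 0.31, adjusted p = 0.19), and 1.03 without array 3 (adjusted p = 5.9e-05), when it became a call.

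Gpx1, the most widely expressed peroxidase, was read by a probe at chr9:108242276-108242335 (mm9). It was at 6.16, 6.11 and 6.26 in Sox7 (+/-) ES cells, 6.49, 6.46 and 6.62 in Sox7 (+/-) XEN-like cells, 5.77, 6.01 and 5.75 in Sox7 (-/-) ES cells and 6.52, 6.46 and 6.40 in Sox7 (-/-) XEN-like cells. The groups were close, with Sox7 (-/-) ES cells the lowest and both XEN-like groups overlapping. In Sox7 (-/-) cells it rose by 0.62 (SE 0.09, adjusted p = 1.1e-04), which is 1.53-fold and under the limit. In Sox7 (+/-) cells the difference of 0.35 (SE 0.09, adjusted p = 0.0056) was also under the limit and turned to -0.14 when arrays were scaled by spike-in controls, and to -0.16 in the deposited table that was not scaled. In ES cells the genotypes differed by -0.33 (SE 0.09, adjusted p = 0.011), and in XEN-like cells by -0.06 (95% confidence interval -0.26 to 0.13).

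The Gpx4 probe spans 152 positions on chr10:79518691-79518842 (mm9) with its 60 bases, so it crosses an intron. Gpx4, the peroxidase that protects membrane lipids, was between 6.38 and 6.88 on all 12 arrays, and its highest value was on array 3 of the Sox7 (+/-) XEN-like cells. Its Dex response was -0.04 in Sox7 (+/-) cells (95% confidence interval -0.32 to 0.24) and -0.20 in Sox7 (-/-) cells (-0.48 to 0.08). Its genotype differences were 0.08 in ES cells (-0.20 to 0.36) and -0.08 in XEN-like cells (-0.36 to 0.20). All 4 intervals lay within 2-fold.

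Both peroxidases of the endoplasmic reticulum differed between the genotypes, Gpx7 in XEN-like cells and Gpx8 in ES cells. Gpx7 had its probe at chr4:108072995-108073054 (mm9) and was below the 75th percentile, yet well above background, on all arrays. In Sox7 (+/-) cells it fell with Dex, from -1.18, -1.17 and -1.19 to -2.51, -2.56 and -2.70. In Sox7 (-/-) cells it was -0.96, -0.83 and -1.17 without Dex and -1.18, -1.11 and -1.14 with it. The Sox7 (+/-) XEN-like cells were thus apart from the other 3 groups, whose values lay between -1.19 and -0.83. The response was -1.41 (SE 0.09, adjusted p = 3.3e-07), or 2.67-fold, in Sox7 (+/-) cells and -0.16 (SE 0.09, adjusted p = 0.15) in Sox7 (-/-) cells. These responses differed by 1.26 (SE 0.13, adjusted p = 7.3e-05), and by 1.20 without array 3. In XEN-like cells Gpx7 was 2.74-fold higher in Sox7 (-/-) than in Sox7 (+/-) cells, at 1.45 (SE 0.09, adjusted p = 2.8e-06), and at 1.47 within slide 2 (adjusted p = 1.8e-04). After normexp background correction with its added offset, which draws dim signals together, this difference was 0.71, the Sox7 (+/-) response -0.66 and the difference between the responses 0.54, all under 2-fold with adjusted p under 0.05. In ES cells the genotypes differed by 0.19 (SE 0.09, adjusted p = 0.10).

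Gpx8, the transmembrane peroxidase of the same compartment, rose with Dex in both genotypes. Its probe lies at chr13:113833213-113833272 (mm9). The signal was 1.57, 1.70 and 1.58 in Sox7 (+/-) ES cells and 3.03, 3.09 and 2.85 in Sox7 (+/-) XEN-like cells. It was 0.32, 0.44 and 0.32 in Sox7 (-/-) ES cells and 3.35, 3.29 and 3.24 in Sox7 (-/-) XEN-like cells. No groups overlapped, and the order from low to high was Sox7 (-/-) ES, Sox7 (+/-) ES, Sox7 (+/-) XEN-like and Sox7 (-/-) XEN-like cells. The response was 1.37 (SE 0.08, adjusted p = 1.7e-07) in Sox7 (+/-) cells, or 2.59-fold, and 0.89 with spike-in scaling or in the deposited table, under 2-fold. In Sox7 (-/-) cells it was 2.93 (SE 0.08, adjusted p = 5.5e-10), or 7.63-fold. The difference between these responses was 1.56 (SE 0.11, adjusted p = 7.2e-06). Without Dex, Gpx8 was 2.39-fold lower in Sox7 (-/-) cells, at -1.26 (SE 0.08, adjusted p = 1.9e-06), and at -1.34 with slide as a block (adjusted p = 6.2e-04). With Dex it differed by 0.30 (SE 0.08, adjusted p = 0.016), which is 1.23-fold. Slide as a block gave 0.27 (adjusted p = 0.054).

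In the thioredoxin system the reductase Txnrd1 stayed within 2-fold while Txnip, which restrains thioredoxin, fell with Dex in both genotypes. Txnip was read by 2 probes at chr3:96365147-96365206 and chr3:96364206-96364265 (mm9), of which the first was brighter. With this probe Sox7 (+/-) ES cells had 1.46, 1.64 and 1.53 and Sox7 (+/-) XEN-like cells 0.24, 0.29 and -0.85. Sox7 (-/-) ES cells had 2.11, 2.48 and 2.21 and Sox7 (-/-) XEN-like cells 0.45, 0.68 and 0.83. All ES arrays were above all XEN-like arrays, and in each state the Sox7 (-/-) arrays were above the Sox7 (+/-) ones. Txnip fell by 1.65 on the log2 scale (SE 0.26, adjusted p = 3.2e-04), or 3.14-fold, in Sox7 (+/-) cells and by 1.61 (SE 0.26, adjusted p = 3.3e-04), or 3.05-fold, in Sox7 (-/-) cells. Without array 3 the Sox7 (+/-) response was -1.28 (adjusted p = 2.7e-05). The second probe gave -1.34 (adjusted p = 0.0034) and -1.32 (adjusted p = 0.0033), and was not well above background on array 3 of the Sox7 (+/-) XEN-like cells.

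The Dex responses of Txnip differed between the genotypes by 0.04 (95% confidence interval -0.79 to 0.87), an interval that lies within 2-fold, and by -0.33 without array 3 (adjusted p = 0.19). The genotype difference was 0.72 in ES cells (SE 0.26, adjusted p = 0.047) and 0.76 in XEN-like cells (SE 0.26, adjusted p = 0.048), both under 2-fold. These became 1.03 with slide as a block (adjusted p = 0.21) and 0.86 (adjusted p = 0.064). In XEN-like cells it became a call at 1.004 with spike-in scaling (adjusted p = 0.033) and at 1.05 in the deposited table (adjusted p = 2.7e-05), and leaving out array 3 gave 0.39 (adjusted p = 0.048). The second probe gave 0.50 (adjusted p = 0.21) and 0.52 (adjusted p = 0.21). The genes with a pattern nearest to that of Txnip over the 12 arrays were Scrn1, with a root mean square difference of 0.12, Ttyh1, a membrane channel protein, with 0.17, and Macrod1, a macrodomain hydrolase, with 0.17.

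Txnrd1 was read at chr10:82360230-82360289 (mm9). It had 4.66, 4.77 and 4.73 in Sox7 (+/-) ES cells, 4.56, 4.53 and 4.79 in Sox7 (+/-) XEN-like cells, 5.0, 5.08 and 4.99 in Sox7 (-/-) ES cells and 4.68, 4.56 and 4.58 in Sox7 (-/-) XEN-like cells. The Sox7 (-/-) ES cells were the highest group and the others overlapped. The response was -0.41 (SE 0.08, adjusted p = 0.0010) in Sox7 (-/-) cells, or 1.33-fold, and -0.09 in Sox7 (+/-) cells (95% confidence interval -0.27 to 0.08). In ES cells the genotypes differed by 0.30 (SE 0.08, adjusted p = 0.012), and by 0.20 with slide as a block (adjusted p = 0.42). In XEN-like cells they differed by -0.02 (-0.20 to 0.16).

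Between the genotypes, 1 of the 9 genes was called higher in Sox7 (-/-) XEN-like cells, Gpx7, where 3.85% of all probes were called higher, and 0 were called lower, where 3.64% of all probes were. Gpx8 and Txnip had an unadjusted and adjusted p under 0.05 in XEN-like cells with a difference under 2-fold, so they were not called. In ES cells 0 were called higher, against 1.94% of all probes, and 2 lower, Gpx2 and Gpx8, against 6.67%. The Dex response differed between the genotypes for 3 genes, Gpx2, Gpx7 and Gpx8, all with the higher value in Sox7 (-/-) cells, where 6.62% of all probes were called. A lower response was called for 0 of the 9 and for 3.16% of all probes. These comparisons share arrays with each other and with the Dex responses, so they are not separate evidence. The medians of the 9 genes were 0.18 in XEN-like cells, -0.33 in ES cells and 0.57 for the responses, beside 0.00081, 0.10 and -0.09 over all probes. The XEN-like median is the value of Sepp1, which was -0.52 without array 3 of the Sox7 (+/-) XEN-like cells. The median for the responses is the value of Gpx3. Both genes were chosen on their XEN-like signal, so these medians are only a description.

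**Figure D3:**
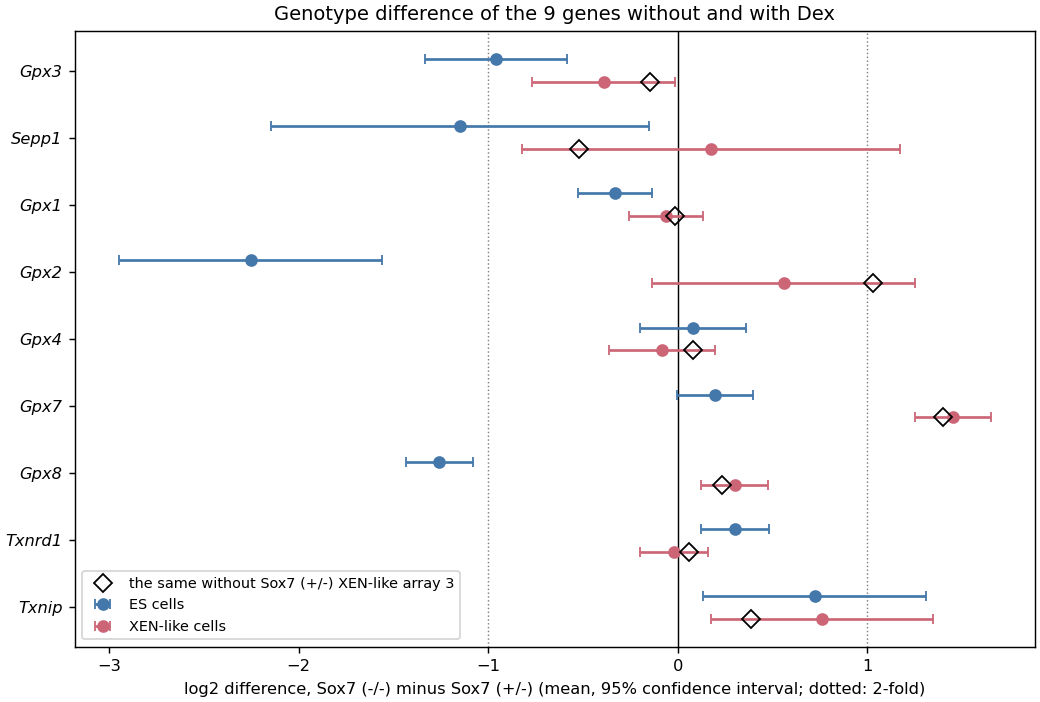
Genotype difference of the 9 genes as the log2 difference of Sox7 (-/-) minus Sox7 (+/-), in ES cells (blue) and XEN-like cells (red), with 95% confidence intervals from limma. Dotted lines are 2-fold, and diamonds leave out array 3 of the Sox7 (+/-) XEN-like cells, which turned Sepp1 from 0.18 to -0.52 and moved Gpx2 from 0.56 to 1.03. Gpx2, Gpx8 and Sepp1 lay beyond 2-fold in ES cells, Sepp1 without being called, and Gpx7 in XEN-like cells. For Gpx3 and Sepp1, chosen on their XEN-like signal, the red intervals are only a description.

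Around the 9 genes, 84 genes of the same pathways were listed and 72 could be tested. With Dex, 12 were called higher and 7 lower in Sox7 (+/-) cells, and 11 and 8 in Sox7 (-/-) cells, which is 16.7%, 9.72%, 15.3% and 11.1% of the 72. The same shares over all probes were 11.0%, 13.9%, 14.6% and 14.2%. Without array 3 of the Sox7 (+/-) XEN-like cells, 11 were called higher and 6 lower in Sox7 (+/-) cells. Dio3, Selm and Glrx5 were then no longer called and Cndp2 was. Gpx5 and Gpx6, the remaining glutathione peroxidases, were too dim to be tested.

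Other selenoproteins, of which 14 were tested, were 6 higher and 1 lower in Sox7 (+/-) and 5 higher and 0 lower in Sox7 (-/-) XEN-like cells. Vimp, a membrane protein of the endoplasmic reticulum that takes part in clearing misfolded proteins, rose most, by 1.81 (SE 0.12) and 1.76 (SE 0.12) on the log2 scale. Dio3, which inactivates thyroid hormone, was the one called lower, and as it was not above background on any Sox7 (+/-) XEN-like array it was at least 1.26-fold lower. It was not called without array 3 (adjusted p = 0.082). In XEN-like cells Sephs2, which makes the selenium donor for selenocysteine and is a selenoprotein itself, was 1.68 (SE 0.09) higher in Sox7 (-/-) cells, the one call of this list. Its response to Dex also differed, by 1.20 (SE 0.13).

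Among 10 genes of selenocysteine synthesis and Sepp1 uptake, Lrp2, the endocytic receptor megalin, rose with Dex by 1.54 (SE 0.29) in Sox7 (+/-) and 3.34 (SE 0.29) in Sox7 (-/-) cells. Its level in ES cells was lower in Sox7 (-/-) cells, at -2.31 (SE 0.29), and the 2 responses differed by 1.80 (SE 0.41, adjusted p = 0.0092). Lrp8, the other Sepp1 receptor, was above background on all Sox7 (+/-) XEN-like arrays and on none of the Sox7 (-/-) arrays, which made it at least 3.48-fold lower in Sox7 (-/-) XEN-like cells. In all, 2 genes of this list were called higher with Dex in Sox7 (+/-) cells and 1 in Sox7 (-/-) cells, and none lower.

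Glutathione synthesis and reduction, with 13 genes tested, had 0 higher and 3 lower in Sox7 (+/-) and 1 higher and 4 lower in Sox7 (-/-) XEN-like cells. Cbs, the first enzyme of transsulfuration, fell most, at -3.99 (SE 0.16) and -4.23 (SE 0.16), while Cndp2, a dipeptidase, rose by 1.30 (SE 0.19) in Sox7 (-/-) cells. Between the genotypes in XEN-like cells, Ggt1, which cleaves extracellular glutathione, was 2.78 (SE 0.18) higher and Cth, which makes cysteine from cystathionine, was lower at -1.07 (SE 0.08) in Sox7 (-/-) cells. The Dex response of Ggt1 differed by 2.36 (SE 0.26) and that of Chac1, which degrades glutathione in the cytosol, by -2.24 (SE 0.73, adjusted p = 0.045). No gene of this list was called between the genotypes in ES cells.

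Of 15 thioredoxins, glutaredoxins and peroxiredoxins, 2 were called higher and 1 lower in Sox7 (+/-) and 1 each way in Sox7 (-/-) XEN-like cells. Prdx4, the peroxiredoxin of the endoplasmic reticulum, rose by 1.29 (SE 0.09) and 1.80 (SE 0.09), and Srxn1, which repairs overoxidized peroxiredoxins, fell by 1.33 (SE 0.28) and 1.80 (SE 0.28). Glrx, a glutaredoxin, was 1.18 (SE 0.08) higher in Sox7 (-/-) XEN-like cells and was the one gene of this list called between genotypes. Catalase, Cat, rose by 1.37 (SE 0.08) and 1.24 (SE 0.08). Of the other genes of its list, Sod2, the mitochondrial superoxide dismutase, fell by 1.34 (SE 0.09) in Sox7 (-/-) cells.

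Nrf2 and its antioxidant targets, with 12 genes tested, were 1 higher and 3 lower in Sox7 (+/-) and 2 higher and 3 lower in Sox7 (-/-) XEN-like cells. Keap1, the adaptor that marks Nrf2 for degradation, rose by 1.27 (SE 0.08) and 1.43 (SE 0.08). Nqo1, a quinone reductase, was not above background on any Sox7 (+/-) XEN-like array and was at least 4.37-fold lower there, and it was called lower in Sox7 (-/-) cells, with 1 of 3 XEN-like arrays above background. Me1, malic enzyme, was lower in Sox7 (-/-) ES cells at -1.04 (SE 0.09), and its Dex response differed by 1.01 (SE 0.12), or 0.93 without array 3, which is under 2-fold. None of 7 Txnip relatives and regulators, which include the glucose-sensing factors Mlxip and Mlxipl, was called in any of the 5 comparisons. Over all lists, 4 genes were called higher and 2 lower between the genotypes in XEN-like cells, and 0 and 3 in ES cells. These are 5.56%, 2.78%, 0% and 4.17% of the 72, beside 3.85%, 3.64%, 1.94% and 6.67% of all probes. Without array 3 the counts in XEN-like cells were 3 and 3, as Cndp2 was no longer called (0.93) and Chac1 was called lower, at -2.22 instead of -1.43.

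**Figure D4:**
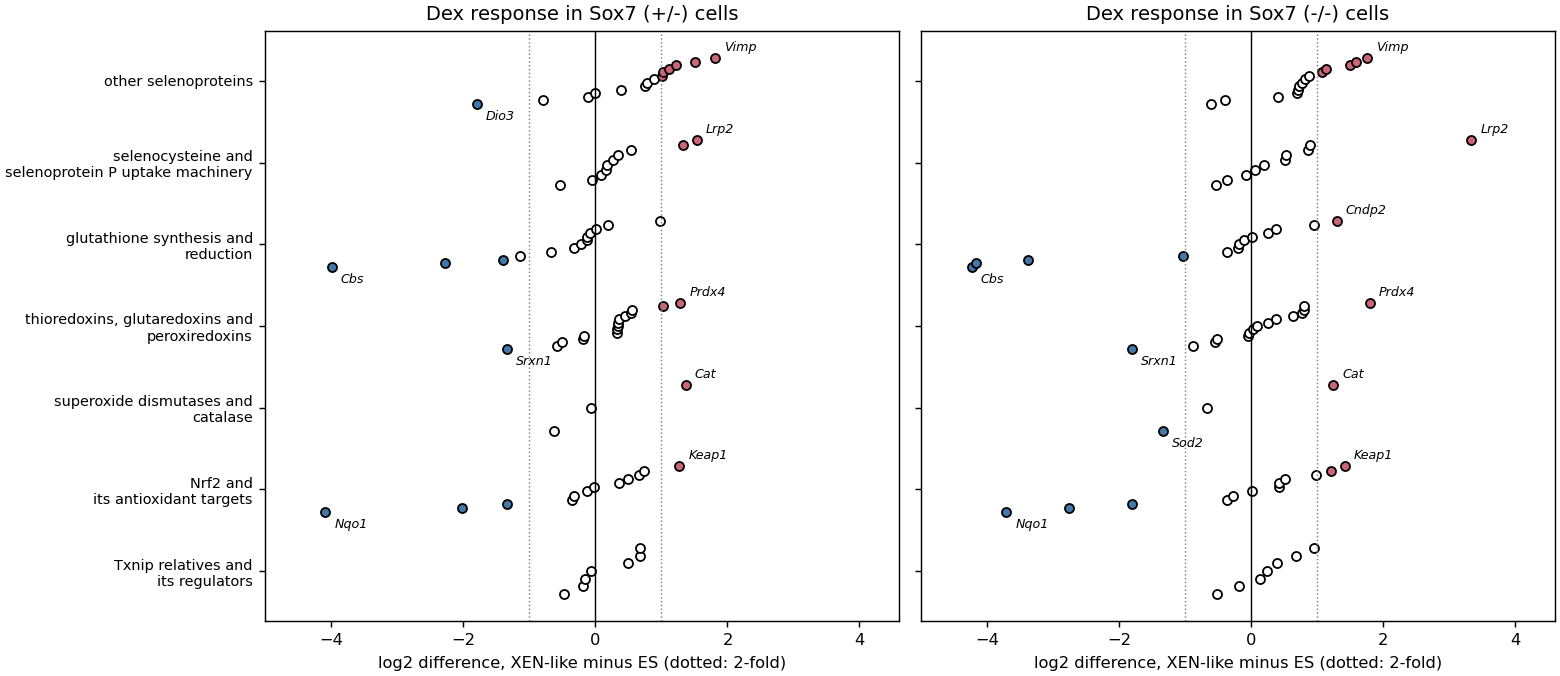
Dex response of the 72 tested genes of the pathway lists as the log2 difference of XEN-like minus ES cells, in Sox7 (+/-) cells (left) and Sox7 (-/-) cells (right). Each point is a gene, filled where called (red higher, blue lower), dotted lines are 2-fold, and the called gene with the largest rise and fall of each list is named. Dio3 and Nqo1 in Sox7 (+/-) cells are drawn at their measured values, though neither was above background there, and a gene in 2 lists is drawn in both.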

How the data were processed

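The authors put RNA of 4 groups of 3 samples on 12 Agilent arrays read in one colour, and the labels name Agilent Feature Extraction 10.7.3.1. Scanner output with spot intensity values was deposited per array. Its processed signal had the background taken off and had no scaling between arrays. A deposited table of linear intensity values lay within 0.498% of the mean spot signal of each array and was used as an alternative. Probe positions are those of the array files, on mm9.

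From these, log2 of the processed signal minus the 75th percentile of the array was computed over 59305 spots besides controls, leaving out 139 to 190 spots per array with outlier flags, and spots of a probe were averaged. Between 41.7% and 52.3% of spots per array were well above background and 0 were saturated. The 25922 probes that stood well above background throughout at least 1 group were fitted with limma 3.58.1 in R 4.3.3 over all 12 arrays, with 1 mean per group. A call needed a Benjamini-Hochberg adjusted p under 0.05 and over 2-fold, in each of 5 comparisons. The number of arrays limits the precision. A gene was read by its brightest probe.

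The 9 genes and the lists around them were chosen with earlier results of these data known. Named were all 9 genes, for Gpx3, Sepp1 and Txnip the 3 genes with the smallest root mean square difference of centred values, and in each list the called genes with the largest rise and fall. Marker lists were extraembryonic endoderm, pluripotent ES cells, trophectoderm, primitive streak and mesoderm, and fibroblasts. Besides those given with the results, the fibroblast sum was 378 to 467 in ES cells and 48 to 84 in XEN-like cells, as percentages of the 75th percentile signal. The sum for primitive streak and mesoderm was 1147 to 1394 in ES cells and 1300 to 1754 in XEN-like cells. Of its markers, T was well above background on all 3 Sox7 (+/-) ES arrays and on 0 Sox7 (-/-) ES arrays, and was called lower in the latter. The alternatives were 12 other settings, leaving out each of 12 arrays and 2 within-slide fits. The within-slide fits, and leaving out array 3 for the lists, were chosen after seeing the data. Tested on simulated data, the fit behaved as follows: of 200 probes changed by 2 on the log2 scale among 25881, 183 were recovered with 4 false calls for the genotypes in XEN-like cells and 167 with 5 for the difference in Dex response. The authors' own gene lists were not used.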

Additional observations from a re-analysis of the deposited data

Results flagged for a closer look

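For 3 of the 9 genes the Dex response differed between Sox7 (-/-) and Sox7 (+/-) cells by the test of the difference itself (limma, all 12 arrays). The difference was 2.81 on the log2 scale for Gpx2, which was lower with Dex in Sox7 (+/-) cells and higher in Sox7 (-/-) cells. It was 1.26 for Gpx7, with a fall called in Sox7 (+/-) cells only, and 1.56 for Gpx8, which rose in both. For Gpx2, array 3 of the Sox7 (+/-) XEN-like cells was at 1.14, and the others of its group at -0.23 and -0.33. With slide as a block the differences were 2.76, 1.22 and 1.62. After normexp background correction the difference for Gpx7 was 0.54 and its Sox7 (+/-) fall -0.66, both under 2-fold. Each difference draws on the ES arrays, where the genotypes are on different slides. The slide term of the block rests on array 1 of the Sox7 (-/-) XEN-like cells.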

How the results depend on the processing

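Of 10 counts of called genes, over 7 genes for the Dex responses and 9 otherwise, 7 stayed within 1.5 times under every setting run. The count called higher with Dex in Sox7 (+/-) cells was 1 as reported and 0 with spike-in scaling and in the deposited table, where Gpx8 was under 2-fold. That in Sox7 (-/-) cells was 2 as reported and 1 with normexp, in the deposited table and with slide as a block, where Gpx2 was not called. Between genotypes in XEN-like cells, the count called higher was 1 as reported. It was 0 with normexp, 2 with spike-in scaling, 2 in the deposited table (Txnip added in both), and from 1 to 2 on leaving out each array (2 without Sox7 (+/-) XEN-like array 3, with Gpx2 added). Under this last omission the Sox7 (+/-) XEN-like mean rests on 2 arrays.

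Values that turned their sign were not called. With normexp these were 0.053 for Gpx1, 0.028 for Gpx4 and 0.078 for Txnrd1 between genotypes in XEN-like cells, and -0.075 for Txnip in how far the Dex responses differed. With quantile normalization Gpx4 gave -0.12 in ES cells and 0.074 for the responses. With spike-in scaling Gpx1 gave -0.14 for the Sox7 (+/-) response, the XEN-like differences were 0.18 (Gpx1), 0.16 (Gpx4) and 0.22 (Txnrd1), Gpx4 gave -0.074 in ES cells, and the response differences were 0.23 (Gpx4) and 0.076 (Txnrd1). In the deposited table Gpx1 gave -0.16 for the Sox7 (+/-) response, XEN-like differences were 0.40 (Gpx1), 0.031 (Gpx3), 0.38 (Gpx4) and 0.43 (Txnrd1), and response differences 0.29 (Gpx4) and 0.11 (Txnrd1). With slide as a block Gpx4 gave -0.065 in ES cells and Txnip -0.16 for the responses.

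Leaving out arrays gave ranges of -0.20 to 0.056 for the Sox7 (+/-) response of Gpx4, -0.18 to 0.077 for Gpx4, -0.52 to 0.53 for Sepp1 and -0.066 to 0.061 for Txnrd1 between genotypes in XEN-like cells, and -0.33 to 0.24 for the response difference of Txnip. The cause of these changes was not tested. Scaling moved the whole table. The share of calls that were higher was 44.1% for the Sox7 (+/-) response against 18.8% with spike-in scaling and 19.6% in the deposited table, and 51.4% between genotypes in XEN-like cells against 76.5% and 89.9%. For the response difference it was 67.7% against 89.6%, 89.5% and, with no filter, 34.8%. Between genotypes in ES cells it was 22.6% against 13.1% with spike-in scaling. The median over all probes moved from 0.16 to -0.33 and -0.23 for the Sox7 (+/-) response and from 0.00081 to 0.24 and 0.34 between genotypes in XEN-like cells.

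The deviations of samples with the same replicate number correlated from -0.04 to 0.23 and not always above 0.1, so the numbers were not taken as pairs. With a replicate block the counts of called genes were as reported except that 3 instead of 2 were lower in Sox7 (-/-) ES cells, where Sepp1 passed (adjusted p = 0.0498). The fit on the compared groups alone gives no value for the response difference. Signal over background limits the dim second probe of Txnip, and 3 arrays per group limit every value.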
